A study of Mus musculus with 3 samples.

Results

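Cathepsins are the proteases of the endosome and lysosome, and the genes described here are Ctsl, Ctsb, Ctsd, Ctss, Ctsh, Ctsc, Ctsz, Ctsw, Ctse and Ctsa. These 10 genes were chosen by name, with earlier results on Ctsl in the same arrays known, and each was found in the deposited table as 1 named probe set. They are 10 of 19938 named genes. RNA of mouse thymocytes, the T cell precursors found in the thymus, had been hybridised to Affymetrix whole-transcript arrays, with 1 array for each of 3 genotypes. The wild type sample is labelled WT and came at an age of 12 weeks, the β-catenin transgenic sample at 16 weeks and the TCF-1-deficient sample, labelled TCF-1-/-, at 8 weeks. In Wnt signalling, β-catenin binds the transcription factor TCF-1. The labels name thymocytes passed through a strainer, with no sort, and do not state the transgene's promoter, the strain or whether animals were pooled.

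Without replicates no difference below has an error or a p-value, and precision is limited by the number of arrays. Genes were called higher or lower at a log2 difference of at least 1, which is 2-fold, as a rule of size. Levels are deposited log2 values and are compared only between arrays for the same gene. Age differs together with genotype in each comparison, so the effects of these cannot be told apart. Xist, the RNA of the inactive X chromosome in females, was at 12.49 on the wild type, 4.86 on the transgenic and 12.17 on the TCF-1-deficient array. Genotype, age and this sex-linked difference therefore cannot be told apart in comparisons with the transgenic array. All 12 measured thymocyte markers reached the median level over named genes (6.90) on at least 1 array. In such unsorted suspensions, fewer cells of a type and less RNA per cell cannot be told apart.

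Cathepsins are made as inactive proenzymes, are sorted to the lysosome and are activated there by removal of a propeptide. Most, among them cathepsins L, B, S, H, C, Z and W, are papain-like cysteine proteases, whereas cathepsins D and E are aspartic proteases and cathepsin A is a serine carboxypeptidase. In the thymus, cathepsin L is best known for its work in cortical epithelial cells, where it contributes to the degradation of the invariant chain and to the selection of CD4+ T cells. Cathepsin S has the corresponding place in the class II MHC pathway of dendritic cells, B cells and macrophages.

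Upstream sequences are shown first for Ctsl, whose level differed between genotypes, and for Ctsd and Ctsa. The Ctsd and Ctsa windows shown are those of the listed genes that hold the letters TCACGTGA, described below. They are therefore not neutral comparators for Ctsl and do not stand for the other members. Each is the 250 bases before a RefSeq gene start in build GRCm38.p6, on the gene's strand from 5′ to 3′. Of the 10 genes, 6 had an entry in the RefSeq promoter table. The Ctsl window lies on the minus strand at chr13:64370521-64370770, the Ctsd window on the minus strand at chr7:142387828-142388077, and the window of the other of the listed Ctsa starts on the plus strand at chr2:164833523-164833772. Capitals mark the letters TCAAAG or CTTTGA (the core that TCF proteins bind, on either strand), CACGTG (the E-box core) and TCACGTGA, which contains CACGTG and resembles the element common before lysosomal genes.
Ctsl: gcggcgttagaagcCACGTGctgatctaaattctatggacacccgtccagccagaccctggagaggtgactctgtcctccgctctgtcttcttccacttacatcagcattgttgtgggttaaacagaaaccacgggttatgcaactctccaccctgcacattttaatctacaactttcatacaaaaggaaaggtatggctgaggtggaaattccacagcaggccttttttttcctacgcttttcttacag
Ctsd: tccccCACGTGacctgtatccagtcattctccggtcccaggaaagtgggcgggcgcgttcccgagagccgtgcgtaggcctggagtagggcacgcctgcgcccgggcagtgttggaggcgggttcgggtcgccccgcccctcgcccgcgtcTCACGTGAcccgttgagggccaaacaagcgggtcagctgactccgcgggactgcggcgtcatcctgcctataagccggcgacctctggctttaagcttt
Ctsa: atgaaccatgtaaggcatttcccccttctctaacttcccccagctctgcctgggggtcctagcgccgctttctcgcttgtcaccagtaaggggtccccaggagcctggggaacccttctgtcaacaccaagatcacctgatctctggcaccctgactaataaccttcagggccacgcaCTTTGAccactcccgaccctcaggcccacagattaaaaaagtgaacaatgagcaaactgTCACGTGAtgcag

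In the Ctsl window CACGTG occurs once, 236 bases before the start, and TCAAAG does not occur on either strand. The Ctsl window ends in a run of pyrimidines followed by the letters acag, as introns do, so it is uncertain that it holds a promoter used in thymocytes. The Ctsd window holds CACGTG 2 times, 1 of them within TCACGTGA, and the Ctsa window holds TCACGTGA once and TCAAAG once. Over all 32851 windows of the same length in the table, 13.8% hold TCAAAG on either strand, 6.02% hold CACGTG and 0.785% hold TCACGTGA. The windows of Ctss, Ctsc, Ctsz and the remaining Ctsa start hold none of these letters. These matches are descriptions of the sequence and say nothing about binding.

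Ctsl was the 1 member of the 10 past 2-fold in any comparison. The level of Ctsl (probe set 10410124), the gene of cathepsin L, was 9.95 on the wild type, 11.66 on the transgenic and 8.17 on the TCF-1-deficient array. Wild type thus lay between the transgenic level, the highest, and the TCF-1-deficient level, the lowest. The difference of transgenic from wild type was 1.71 (3.26-fold), that of TCF-1-deficient from wild type was -1.78 (3.43-fold lower), and that of transgenic from TCF-1-deficient was 3.48 (11.2-fold). The first and second comparison share the wild type array. Ctsl was put on the list because of such values, which are therefore a description only. By difference, Ctsl ranked 9 from the highest of 19938 genes on the transgenic against the wild type array. It ranked 127 from the lowest in TCF-1-deficient against wild type.

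**Figure D1:**
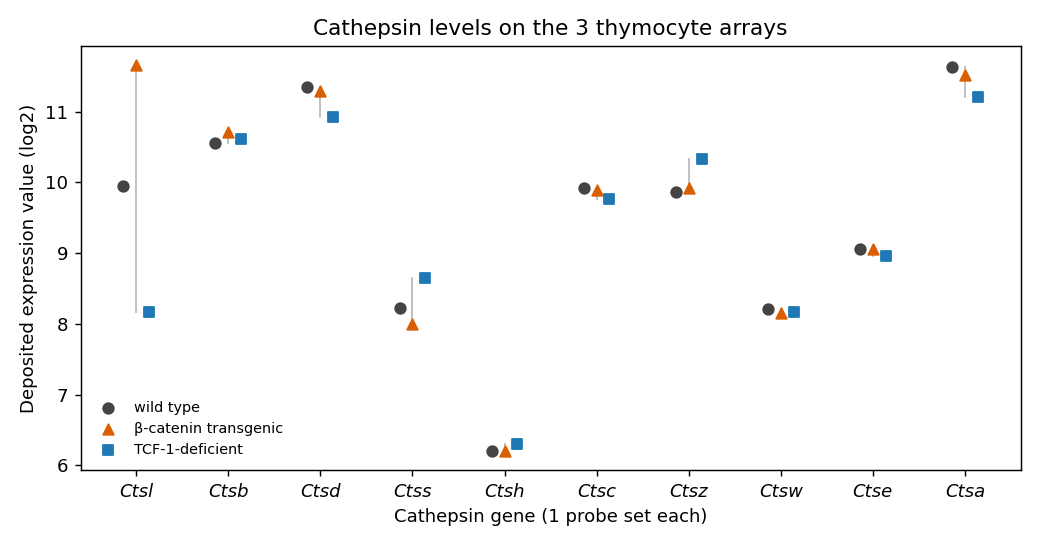
Deposited log2 values of the 10 cathepsin genes on the wild type (circles), β-catenin transgenic (triangles) and TCF-1-deficient (squares) array, 1 array each, with a grey line over each gene's range. Ctsl spans 3.48 log2 units between the TCF-1-deficient and the transgenic array, and no other member spans more than 0.64; levels are not comparable between genes.

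On the transgenic against the wild type array, 1 of 10 cathepsins was higher by at least 2-fold, against 0.15% of all named genes, and 0 were lower, against 0.0953%. Apart from Ctsl, the 9 members lay between -0.22 and 0.15, so all were within 1.5-fold, a size that 1.15% of named genes passed in either direction. Their median difference was -0.02, with a median of 0 over all named genes, of which 53.3% have identical values on these arrays. For TCF-1-deficient against wild type, 1 of 10 was lower, against 2.62% of named genes, and 0 were higher, against 1.33%. The other 9 lay between -0.43 and 0.48, again within 1.5-fold, which 10.9% of named genes passed, with a median of -0.04. With each array centred, Ctsz at 0.61 was past 1.5-fold. Between the transgenic and the TCF-1-deficient array, 1 of 10 was higher, against 2.45%, and 0 were lower, against 1.57%. In that comparison Ctss, at -0.64, was the 1 of the other 9 members past 1.5-fold, against 10.7% of named genes. The size of the Ctsl difference was 7.79 times that of the next member on the log2 scale for transgenic against wild type (Ctss) and 3.74 times for TCF-1-deficient against wild type (Ctsz). These comparisons used the values that put Ctsl on the list, so nothing is read from the background shares.

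Among the other papain-like endopeptidases, Ctsb and Ctss did not share the order of the arrays seen for Ctsl. Ctsb, the gene of the abundant lysosomal protease cathepsin B, was at 10.56 on the wild type, 10.72 on the transgenic and 10.61 on the TCF-1-deficient array. Its whole range of 0.15 is small beside that of Ctsl, and 16.3% of all named genes lay as far from 0 or farther on the transgenic against the wild type array. Ctss, the gene of cathepsin S, was at 8.22, 8.00 and 8.65 in the same order of arrays. The order of Ctss is thus the opposite of that of Ctsl, with the TCF-1-deficient array highest and the transgenic array lowest, at differences from wild type of 0.42 and -0.22.

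Ctsz, Ctsc, Ctsh and Ctsw, papain-like genes of more special roles, were all within 1.5-fold as deposited. Ctsz, whose product removes single residues from the carboxyl end, was at 9.86 on the wild type, 9.92 on the transgenic and 10.34 on the TCF-1-deficient array. At 0.48 above wild type in the sample without TCF-1, its difference was the largest of the members other than Ctsl in either comparison with wild type. Ctsc, the dipeptidyl peptidase that activates granzymes, was at 9.92, 9.90 and 9.77, a range of 0.15. Ctsh, an aminopeptidase, was at 6.20, 6.20 and 6.30 and was the 1 member that stayed under the median level over named genes on all arrays, so little can be read from its 0.09 difference. Ctsw, a papain-like protease of natural killer and cytotoxic T cells, was at 8.21, 8.15 and 8.17, the smallest range of the 10, 0.05.

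Cathepsins of other catalytic classes were also within 1.5-fold. Ctsd, the major aspartic protease of the lysosome, was at 11.35 on the wild type, 11.29 on the transgenic and 10.92 on the TCF-1-deficient array. Ctsa, the carboxypeptidase that protects β-galactosidase and neuraminidase in the lysosome, was at 11.63, 11.53 and 11.20. Both were thus lowest on the TCF-1-deficient array, by -0.42 and -0.43 from wild type, and -0.29 and -0.30 after centring each array on its median, and 17.4% and 17.3% of all named genes differed as much. TCACGTGA occurs in the windows printed above for Ctsd and Ctsa, but not in that of the other Ctsa start, and only 6 members had an entry. A link of these letters to the levels was not tested. Ctse, an endosomal aspartic protease, was at 9.06, 9.06 and 8.97. Ctse and Ctsh have the same deposited value on the wild type and transgenic arrays to the last digit, as do 53.3% of named genes, so their difference of 0 is not a measured equality.

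The order of the arrays varied between the members. From low to high it was TCF-1-deficient, transgenic and wild type for 3 members, Ctsd, Ctsc and Ctsa. It was TCF-1-deficient, wild type and transgenic, without a tie, for 1 member, Ctsl. For Ctse the lowest level was likewise that of the TCF-1-deficient array, with wild type and transgenic equal. For the directions of differences this small, centring of each array on its median matters: it turned the sign for Ctsc, Ctsd and Ctsw in transgenic against wild type and for Ctse and Ctsw in TCF-1-deficient against wild type. It shifts every difference by 0.08 in the former and by 0.13 in the latter comparison.

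**Figure D2:**
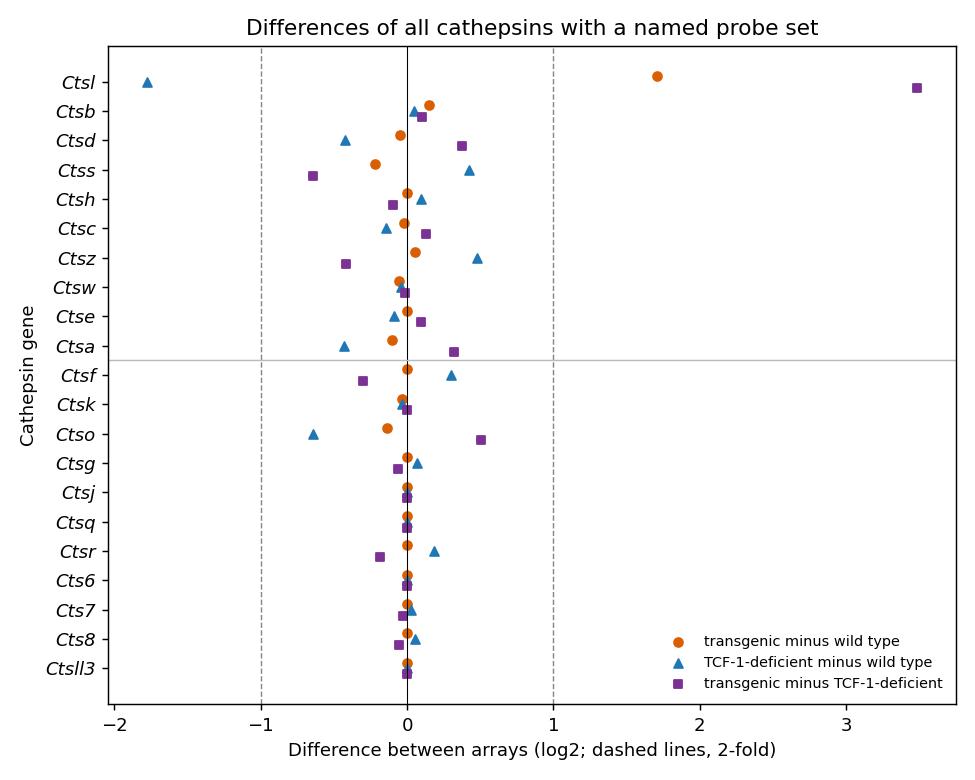
Log2 differences between arrays for all cathepsins with a named probe set, the 10 described here above the grey line and 11 others below it; circles, transgenic minus wild type; triangles, TCF-1-deficient minus wild type; squares, transgenic minus TCF-1-deficient; dashed lines, 2-fold. All points beyond the dashed lines belong to Ctsl.

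Further cathepsin genes were measured by 11 named probe sets, and 0 of them passed 2-fold in any comparison. The shares of all named genes past 2-fold, given above, ran from 0.0953% to 2.62% per direction. Ctso, a broadly expressed papain-like cathepsin, was at 9.08 on the wild type, 8.94 on the transgenic and 8.43 on the TCF-1-deficient array. Its difference of -0.65 on the TCF-1-deficient against the wild type array made it the 1 of the 11 past 1.5-fold, against 10.9% of named genes. Ctsf, another papain-like member, was at 6.14, 6.14 and 6.44, Ctsk, the collagenase of osteoclasts, was within 0.04 of its wild type level of 6.04, and Ctsg, a serine protease of neutrophil granules, was at 5.62, 5.62 and 5.69. All 3 were under the median level over named genes on every array, as were 10 of the 11 and 9595 of all 19938 named genes.

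Mouse chromosome 13 carries Ctsl and 7 more measured cathepsins, Ctsj, Ctsq, Ctsr, Cts6, Cts7, Cts8 and Ctsll3, most of which are known from the rodent placenta. On the transgenic and wild type arrays all 7 had identical values. Ctsr, at 5.23 against 5.05, was the farthest from wild type without TCF-1. Another 4 probe sets match the related Cts3 and Ctsm together and had the same value on all 3 arrays. All of these paralogues were under the median level on every array, so their values cannot show whether they share the pattern of Ctsl. Of the 3 measured genes on each side of Ctsl, Cdk20, which encodes a cyclin-dependent kinase, was at 8.76 on the wild type, 8.87 on the transgenic and 7.66 on the TCF-1-deficient array. It was the 1 neighbour past 2-fold, with -1.10 from wild type in the sample without TCF-1, where 2.62% of all named genes were lower. Prxl2c was lower than wild type on both other arrays, by -0.65 on the transgenic and -0.74 on the TCF-1-deficient array, and Cdc14b by -0.32 and -0.42. The other neighbours, 1810034E14Rik, Cntnap3 and Spata31, were under the median level on all arrays.

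Genes whose pattern was most like that of Ctsl were found by the Euclidean distance between the pairs of log2 differences from wild type. The distance was taken over the 3 arrays and 9518 candidate genes at or above the median level. Predicted genes, clone names, microRNAs and small nucleolar RNAs were left out of the candidates. Within a distance of 0.5 there were 0 genes, and within 1 there were 8. The nearest was Esrp2, a regulator of splicing in epithelial cells, at a distance of 0.64, with levels of 8.15 on the wild type, 9.93 on the transgenic and 7.01 on the TCF-1-deficient array. Anxa5, the phosphatidylserine-binding annexin, followed at 0.85 with levels of 11.35, 12.20 and 9.52. Nav2 at 0.86, Cd44, the hyaluronan receptor, at 0.87, Lamc1, a laminin chain, at 0.88 and Hsd11b1, an enzyme that reactivates glucocorticoids, at 0.90 came next. H2-Q2, a class I MHC gene whose near relatives may contribute to its signal, Ndrg3, Nmnat1, an enzyme of NAD synthesis, and Ankrd50 completed the 10. Their distances ran from 0.99 to 1.06. All 10 were highest on the transgenic and lowest on the TCF-1-deficient array, as the choice by distance sets, and none was a cathepsin.

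**Figure D3:**
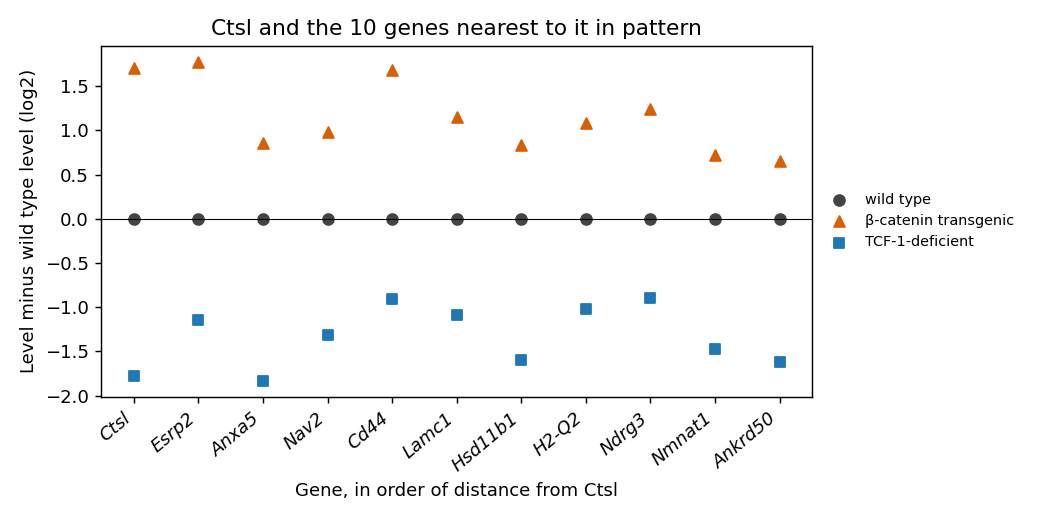
Levels of Ctsl and of the 10 genes nearest to it in pattern, as log2 differences from the same gene's wild type level; circles, wild type; triangles, β-catenin transgenic; squares, TCF-1-deficient. Ctsl lies at 1.71 and -1.78, and Esrp2, the nearest, at 1.78 and -1.14.

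Genes that control or accompany cathepsins were taken from lists of their inhibitors, of other lysosomal genes and of class II presentation. Of 25 listed inhibitors, 21 were measured, and 17 of them were under the median level on all arrays, as were 9595 of all 19938 named genes. On the transgenic against the wild type array 0 of the 21 passed 2-fold, where 0.15% of all named genes were higher and 0.0953% lower. Without TCF-1, 1 of the 21 was past 2-fold upward from wild type and 0 downward, against 1.33% and 2.62% of all named genes. The higher gene was Cst7, cystatin F, an inhibitor made by immune cells that controls cathepsins C and L, which was at 7.45 on the wild type, 6.87 on the transgenic and 8.56 on the TCF-1-deficient array. Its order was the reverse of that of Ctsl, with differences from wild type of 1.10 and -0.59. Serpinb6b was at 8.51, 8.39 and 9.41. Cst3, cystatin C, and Cstb, cystatin B, both broadly expressed inhibitors, had differences of at most 0.10 in size. Cstb has the same deposited value on all arrays. The median of the list was 0 in each comparison, but 13 to 15 of the 21 genes have identical values on the arrays compared. Such a 0 is not a measured equality, and nothing is read from this median.

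Other lysosomal hydrolases included genes lower on the TCF-1-deficient array. Of the 34 measured of 38, 3 were past 2-fold downward and 0 upward against wild type, where 2.62% of all named genes were lower and 1.33% higher. Among genes at or above the median level, as most of this list are, 4.75% were lower and 1.91% higher. The hydrolases had a list median of -0.15 beside 0 over all named genes. In this comparison 11.8% of the list and 36.4% of all named genes have identical values, so these medians are not directly comparable. The 3 were Lipa, lysosomal acid lipase, at 12.31 on the wild type, 12.45 on the transgenic and 10.98 on the TCF-1-deficient array, Hexa, a chain of β-hexosaminidase, at 8.36, 8.11 and 7.14, and Smpd1, acid sphingomyelinase, at 10.04 and 10.29 on the first and second array and -1.04 from wild type on the third. With each array centred, 2 of the 34 passed. The median shift over all named genes was then 0.13, nearly the size of the list's median. Lgmn, legumain, an asparaginyl protease that processes several cathepsins, differed the other way, with 6.98, 6.68 and 7.65. On the transgenic against the wild type array 0 of 34 passed 1.5-fold, against 1.15% of all named genes. Glb1 and Neu1, the partners of cathepsin A, were looked up after their values were seen, and were within 0.12 and 0.01 of their wild type levels without TCF-1.

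Among genes of the lysosomal membrane, of sorting and of acidification, 31 of 32 were measured, and 3 of them were past 2-fold downward, and 0 upward, in TCF-1-deficient against wild type. The list median was -0.05, and the shares over all named genes are those just given. Slc17a5, the sialic acid exporter of the lysosome, was at 10.72 on the wild type, 10.92 on the transgenic and 9.18 on the TCF-1-deficient array. Sort1, sortilin, a sorting receptor, was at 8.30, 8.41 and 6.81, and Scarb2, the receptor that carries β-glucocerebrosidase to the lysosome, at 10.49, 10.19 and 9.30. Grn, progranulin, differed the other way, at 8.88, 8.81 and 9.87. On the transgenic against the wild type array, 0 of 31 passed 1.5-fold, against 1.15% of all named genes. Atp6ap2, an accessory subunit of the proton pump, had the largest difference there, 0.53. Of the 65 genes of these lysosomal lists, 0 were past 2-fold on the transgenic against the wild type array, where so few of all named genes passed (0.15% higher and 0.0953% lower) that nothing is read from this count.

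Class II MHC genes, whose products are loaded after cathepsins L and S have trimmed the invariant chain, were mostly higher without TCF-1. Of 9 measured, 2 were higher than in wild type by at least 2-fold and 5 by at least 1.5-fold, with 0 lower. Their median was 0.81. With each array centred, 4 of the 9 passed 2-fold, against 1.83% of all named genes. As deposited, 1.33% of all named genes were higher by 2-fold, 4.04% higher by 1.5-fold and 2.62% lower by 2-fold. Among genes at or above the median level, 1.91% were higher by 2-fold. These shares also stand beside the marker counts below. Cd74, the invariant chain itself, was at 10.31 on the wild type, 10.58 on the transgenic and 11.21 on the TCF-1-deficient array, and H2-Aa at 9.40, 9.67 and 10.52. H2-Eb2 had the largest difference from wild type, 1.33. Ctss and Ctsz were higher on the same array by 0.42 and 0.48, under 1.5-fold. With each array centred they were at 0.56 and 0.61, and Ctsz was then past 1.5-fold. Some markers of cells that carry class II MHC were higher on this array too. Of 9 measured B lymphocyte markers, 4 were past 2-fold upward without TCF-1 and 0 downward, with summed linear signals of 1574 on the wild type, 1843 on the transgenic and 4019 on the TCF-1-deficient array. Without Blk, the gene with the largest part in the rise, the sums were 1452, 1736 and 3046. Of 20 myeloid markers, 3 were higher and 0 lower, with sums of 2674, 2989 and 6305, and without Ly86, which had the largest difference (4.01), 2496, 2726 and 3415. The 3 higher myeloid markers were Ly86, Cybb (1.55) and Lyz2 (1.12). Without TCF-1, 15 of the 20 were higher than in wild type by any amount and 2 were lower, with a median of 0.19. Spi1, Fcgr3 and Adgre1 were among the 8 of 20 under the median level on all arrays, as were 9595 of all 19938 named genes. Of 12 dendritic cell markers, 1, H2-Aa, was higher, which is the class II gene given above and no separate observation. The sums of that list were 2088, 2264 and 3155, and without H2-Aa 1410.7, 1449.9 and 1689. The part of these cells in the levels of Ctss, Ctsz and the class II genes was not tested.

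Granule genes were of interest because cathepsin C activates granzymes and Ctsw marks cytotoxic cells. Of 9 measured granule proteases and companions, Gzma, granzyme A, was the 1 past 2-fold, at 8.95 on the wild type, 8.54 on the transgenic and 11.60 on the TCF-1-deficient array. Over all named genes 1.33% were higher by 2-fold on that array than on the wild type array. Prf1, perforin, was at 7.77, 7.81 and 7.81. Ctsc and Ctsw did not share the pattern of Gzma, with differences from wild type of -0.15 and -0.04 in the sample without TCF-1. Of 12 markers of cytotoxic and natural killer cells, 2 were higher and 1 lower there, against 1.33% and 2.62% of all named genes. Their sums were 2597, 2161 and 5118. Without Gzma, which is also in this list, the sums were 2102, 1789 and 2016.

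**Figure D4:**
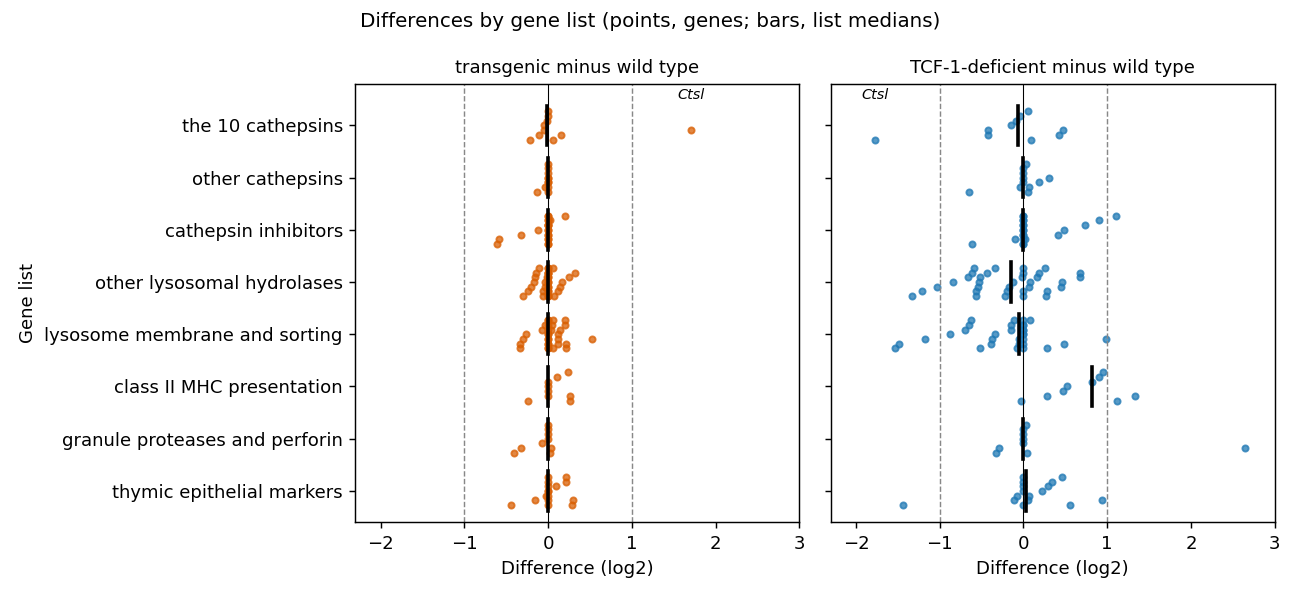
Log2 differences of single genes (points) by list, for transgenic minus wild type (left) and TCF-1-deficient minus wild type (right); black bars, list medians; dashed lines, 2-fold. Ctsl is the 1 gene of these lists past 2-fold on the left, and on the right class II genes lie mostly above 0 with a median of 0.81.

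Thymic epithelial cells express cathepsin L strongly, and their markers were set beside Ctsl. Of 16 markers, all measured, 10 were under the median level over named genes on all arrays, as were 9595 of all 19938 named genes. Among the 10 were Foxn1, the epithelial master regulator, Psmb11, the cortical proteasome subunit, and Prss16, the thymus-specific serine protease. Psmb11 had the same value of 5.96 on all arrays, Foxn1 was at 6.10, 6.10 and 6.15, and Prss16 at 6.14, 6.42 and 6.59 in the order wild type, transgenic, TCF-1-deficient. In transgenic against wild type 0 of the 16 passed 1.5-fold, against 1.15% of all named genes. In TCF-1-deficient against wild type 1 was lower by 2-fold, Cldn4, a claudin, with -1.44, where 2.62% of all named genes were lower. Cdh1 was higher by 0.94 and Pax1 by 0.56. Of the 16 markers, 8 were higher and 3 lower than in wild type, with a median of 0.03. The summed linear signals were 2306, 2201 and 2134, and without Cldn4 they were 1642, 1712 and 1889. With most of these markers this dim, the sums say little about the number of epithelial cells, and their part in the Ctsl levels was not tested.

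Markers of thymocytes were mostly, but not all, lower without TCF-1. Of 12 measured, 5 were past 2-fold downward from wild type and 0 upward, against 2.62% and 1.33% of all named genes. Among genes at or above the median level, 4.75% were lower. The markers had a median of -0.76 and sums of 77367 on the wild type, 79977 on the transgenic and 44741 on the TCF-1-deficient array. Cd4, the co-receptor, was at 12.87, 13.29 and 9.13, Cd8b1 at 13.36, 13.39 and 11.26 and Rag1, a subunit of the recombinase, at 13.04, 13.13 and 11.09. Cd3d, a chain of the T cell receptor complex, went the other way past 1.5-fold, at 11.16, 10.94 and 11.76, Cd3g was higher by 0.17 and Zap70 had the same value on all arrays; these 3 were named after their values were seen. The part of this shift in the lower Ctsl level was not tested. On the transgenic against the wild type array 0 of the 12 passed 1.5-fold, where 1.15% of all named genes did, so nothing is read from this count. The median was 0.01. Of 10 fibroblast and endothelial markers, Pdgfrb, a growth factor receptor, was the 1 past 2-fold in any comparison, at 7.15, 6.87 and 11.62. Over all named genes 1.33% were higher by 2-fold on the TCF-1-deficient against the wild type array. Sums for that list were 1823, 1727 and 4657, and without Pdgfrb they were 1682, 1609.5 and 1509.6. The lower last sum does not stand for most of the list. Without TCF-1, 7 of the 10 were higher than in wild type and 1 was lower, with a median of 0.08. The lower gene was Pecam1, at 9.90 on the wild type and 9.43 on the TCF-1-deficient array.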

How the data were processed

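Thymocyte RNA of 3 genotypes was measured with 1 array each. The deposited table holds 35556 probe sets; the authors made its values with RMA and Partek, per the submitters' processing notes. The genome build, versions and settings are not given in the sources at hand. Values as deposited were read as log2 because RMA ends in log2 and they run from 1.73 to 14.8; no header states the base. Columns of other samples numbered 0. On all arrays, 28.8% of probe sets have identical values.

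Probe sets with 1 symbol in the platform annotation (21789) were reduced to 19938 genes by the highest mean. Differences were taken between arrays, and 14 gene lists were summarised by counts and medians. Summed signals add 2 to the power of each value. The members and lists were chosen with earlier results of these data known. Named are all cathepsins, up to 5 genes per other list with the largest difference at or above the median level, the 10 genes nearest to Ctsl and 3 neighbours per side; other names were chosen after their values were seen. Calls were tested on simulated data, with added shifts larger than the threshold and an assumed noise. That checks the calculation and does not show how reliable the calls are in these arrays. Python 3.11.15, NumPy 2.4.6, pandas 2.3.3, statsmodels 0.14.6 and matplotlib 3.10.9 were used.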

Additional observations from a re-analysis of the deposited data

How the results depend on the processing

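Results were recomputed at 1.5-fold and 3-fold, with arrays centred on their medians, with an intensity trend taken out by loess (span 0.3), with the mean or the widest-ranging of a gene's probe sets, with a filter on dim genes and, chosen after seeing the data, leaving out genes identical on the arrays compared. Under these 8 alternatives Ctsl stayed on its side of the threshold, with differences of 1.71 to 1.79 for transgenic against wild type, -1.78 to -1.64 for TCF-1-deficient against wild type and 3.43 to 3.48 for transgenic against TCF-1-deficient. Only centring and the loess could move these values, and the other alternatives left them unchanged. Ctsl was put on the list because of such values, so this is a description only. The counts of the 10 members past the threshold were kept as well, with 1 exception: at 1.5-fold, 1 member (Ctss) was lower on the transgenic than on the TCF-1-deficient array, which follows from the threshold itself. Each of the 10 members has 1 probe set, so the rules for several probe sets could not change a member. Over all named genes, centring moved the TCF-1-deficient against wild type counts from 266 higher and 523 lower to 364 and 405. Centring also brought class II genes past 2-fold upward from 2 to 4, B lymphocyte markers from 4 to 6 and inhibitors from 1 to 2 in that comparison, and lysosomal membrane and thymic epithelial genes from 0 to 1 each. Ctsz, at 0.61 from wild type without TCF-1 once centred, passed 1.5-fold but not 2-fold. In transgenic against wild type centring brought B lymphocyte and myeloid markers from 0 to 1 each. Leaving 1 gene out of a summed list was also chosen after seeing the data. Of the 10 genes nearest to Ctsl, 8 were kept with the largest of the absolute deviations as distance. With candidates of any level 9 were kept, and predicted genes, clone names, microRNAs and small nucleolar RNAs were again left out. No paired analysis was possible because each genotype has 1 array. With 1 array per genotype, neither array error nor variation between mice can be estimated.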
